A study of Homo sapiens with 7 samples.

Results

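MYOD1, MYOG, MYF5 and MYF6 encode the myogenic regulatory factors, and 8 of the 5782 sites in a table of PAX3-FOXO1 CUT&RUN counts lay near these genes. A site was taken when its centre lay within 250 kb of 1 of 3 hg19 intervals: MYOD1 at chr11:17741110-17743678, MYOG at chr1:203052257-203055166, and MYF6 with MYF5 at chr12:81101277-81113447. The MYOD1 window held 4 sites, the MYF5 and MYF6 window 3 and the MYOG window 1. Within these windows position alone chose the sites, but the gene loci were chosen with earlier results of these data known. A site near a gene is not shown to act on it. The MYOD1 window, which has the most sites, held the most PAX3-FOXO1 reads of the 3, with 341.5 ± 128 reads over its sites with DMSO (SD, n = 2), against 114 ± 69.3 for MYF5 and MYF6 and 29.0 ± 7.07 for MYOG. These SDs include library depth, since the DMSO library B held 1.68 times the reads of A over all sites. After 4 h of degrader the reads were 35.9% of the DMSO mean at MYOD1, 53.4% at MYOG and 67.1% at MYF5 and MYF6. Over all sites they were 50.8%. These percentages include differences in library depth, which were not separated from loss of binding. The MYF5 and MYF6 value turned on 1 control: it was 117.7% without the DMSO library B and 46.9% without the DMSO library A, beside 68.2% and 40.5% over all sites. In raw counts 0 of the 8 sites passed edgeR's quasi-likelihood test against DMSO at 2 h, where 1.04% of all tested sites passed, or at 4 h, where 6.19% did. With TMM scaling, which sets each site against the typical site, it was again 0 of 8. Of all tested sites 6.57% passed at 2 h and 11.4% at 4 h. The tests took the 4 h columns as separate libraries, though these columns differed by no more than sampling noise. Scaled on library totals alone, 0 of the 8 passed at 2 h (8.47% of tested sites) and 2 at 4 h (13.4%).

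The cells were Rh4, an established line from a rhabdomyosarcoma with the PAX3-FOXO1 fusion. In every group the fusion bore an FKBP degron, through which the small molecule dTAG47 leads to its degradation, and an HA tag that the antibody recognised. In CUT&RUN a nuclease tethered to the antibody releases the DNA around the bound protein for sequencing. The groups were crosslinked cells given DMSO (libraries A and B), 500 nM dTAG47 for 2 h (libraries A and B) or 500 nM dTAG47 for 4 h (columns A and B). The labels do not say whether the line is a clone, or that libraries came from separate cultures, so the spread behind each p-value is that of these libraries and may be technical. The table holds no expression values against which the cell type could be checked.

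The myogenic regulatory factors are basic helix-loop-helix proteins that pair with E proteins and bind E-box sequences in muscle genes. MYF5 and MYOD1 commit progenitors to the muscle lineage, MYOG drives their differentiation into fibres, and MYF6, also called MRF4, acts in both early muscle progenitors and differentiated fibres. Rhabdomyosarcoma cells typically make MYOD1 and MYOG without completing differentiation, and both proteins are used as diagnostic markers of this tumour. PAX3, the source of the fusion's DNA-binding part, acts upstream of MYF5 and MYOD1 in the embryo.

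None of the 8 sites lay inside a gene interval, and all 8 were on the upstream side of their gene or gene pair. MYOD1, MYF6 and MYF5 are read from the forward strand and MYOG from the reverse strand. In the MYOD1 window the sites were centred 68.9 kb (chr11:17672022-17672422), 35.9 kb (chr11:17704971-17705371), 33.0 kb (chr11:17707926-17708326) and 23.6 kb (chr11:17717332-17717732) from the gene. The protein-coding neighbour of MYOD1 on that side in the RefSeq gene order is OTOG. The MYF5 and MYF6 sites were centred 197.2 kb (chr12:80903854-80904254), 154.2 kb (chr12:80946887-80947287) and 58.5 kb (chr12:81042565-81042965) from MYF6, the nearer gene of the pair, and the neighbour on that side is PTPRQ. The MYOG site was centred 167.0 kb from the gene (chr1:203221920-203222320), with ADORA1, MYBPH and CHI3L1 as the next genes in order on that side. No hg19 annotation was used here, so whether the sites fall in exons, introns or promoters of these neighbours is not given.

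**Figure D1:**
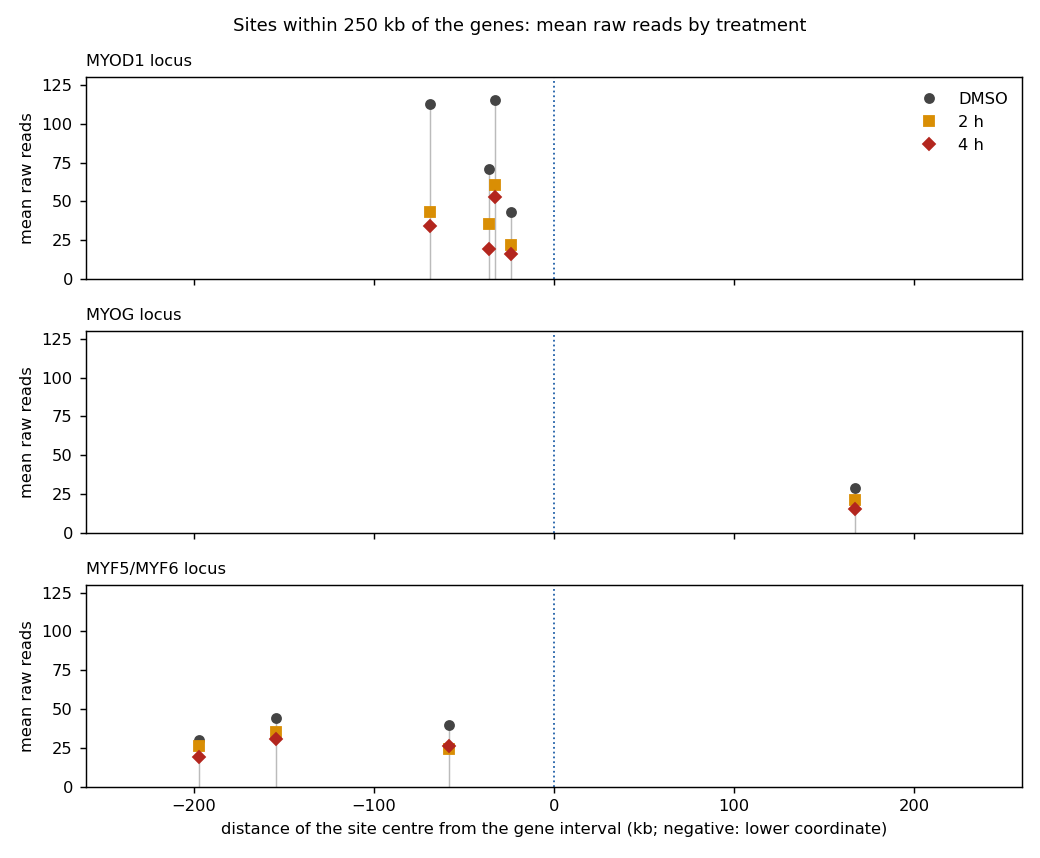
Mean raw reads per site (vertical axis) against the distance of the site centre from the gene interval in kb (horizontal axis, 0 is the interval), for DMSO (circles), 2 h (squares) and 4 h (diamonds). The 4 MYOD1 sites lie 23.6 to 68.9 kb from the gene, whereas the MYOG site lies 167.0 kb away and the MYF5 and MYF6 sites 58.5 to 197.2 kb.

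The MYOD1 sites formed a group, with centres 3.0 kb apart at the closest pair and 32.9 kb at the widest gap between neighbours. Each thus had 3 other sites within 250 kb, and 36.3% of all sites had 3 or more. The MYF5 and MYF6 sites were spaced by 43.0 and 95.7 kb. The MYOG site stood alone, 1041.3 kb from the nearest other site, and 21.5% of all sites likewise had 0 others within 250 kb.

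Library totals in the sites ranged from 110440 to 380057 reads. The DMSO library B held 1.68 times the reads of A, and the 2 h library A 2.07 times those of B. The 4 h columns differed by no more than sampling noise (1.01 for chi-square over its degrees of freedom, p = 0.24, over 5575 sites) and are counted as 1 sample in n and means. The tests below kept both columns, and values with them as 1 library are given where a result is near the threshold. Total reads were 55.9% of the DMSO mean at 2 h and 50.8% at 4 h, and library depth was not separated from loss of binding in them.

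With DMSO the strongest signal near these genes was at MYOD1. The site 33.0 kb upstream of MYOD1 had 115 ± 49.5 reads (SD, n = 2) and ranked 381 of 5782 sites by mean DMSO count. The site 68.9 kb upstream had 112.5 ± 48.8 reads (SD, n = 2) and ranked 405. The site 35.9 kb upstream had 71.0 ± 24.0 reads (SD, n = 2, rank 1075) and the site 23.6 kb upstream 43.0 ± 5.66 (SD, n = 2, rank 2420). The median of all sites was 38.0 reads, so the first 3 of these sites lay well above the typical site and the fourth near it.

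The other 4 sites lay near or below the typical site. The MYF5 and MYF6 sites had 44.0 ± 32.5 reads (SD, n = 2) at 154.2 kb, 40.0 ± 25.5 at 58.5 kb and 30 ± 11.3 at 197.2 kb. The MYOG site had 29.0 ± 7.07 reads (SD, n = 2) and ranked lowest of the 8, at 3877. These SDs include the difference in depth between the DMSO libraries, so they do not tell whether sites differ within a library. The MYOD1 site at 68.9 kb held more reads than that at 35.9 kb in both controls (78 and 147 against 54 and 88). The MYF5 and MYF6 site at 154.2 kb and the MYOD1 site at 23.6 kb changed order between the controls (21 and 67 against 39 and 47). No test was made of the order.

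Within the closest pair of MYOD1 sites the DNA 33.0 kb upstream carried more reads than that 35.9 kb upstream in all 6 columns. The ratio was 1.48 (A) and 1.70 (B) for the controls, 1.98 and 1.20 after 2 h, and 1.88 and 4.38 after 4 h. The 2 h ratios span both DMSO ratios, and both 4 h ratios lie above them, with the 4 h columns themselves far apart.

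The first comparison asked how far HA signal at each site differed from DMSO in raw counts, where differences in library depth remain. At the MYOD1 site 68.9 kb upstream the DMSO libraries gave 78 and 147 reads, the 2 h libraries 65 and 21, and the 4 h columns 35 and 33. All 4 treated columns lay below both DMSO libraries, and the mean was 38.2% of DMSO at 2 h and 30.2% at 4 h. The raw log2 change was −1.38 (SE 0.747, edgeR adjusted p = 0.29) at 2 h and −1.72 (SE 0.757, adjusted p = 0.129) at 4 h. The 2 h value was −2.41 (adjusted p = 0.0282) without the 2 h library A, when 37.3% of all tested sites passed, and −0.79 without the 2 h library B.

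At the MYOD1 site 35.9 kb upstream the DMSO libraries gave 54 and 88 reads, the 2 h libraries 46 and 25, and the 4 h columns 26 and 13. Again all 4 treated columns lay below both DMSO libraries. The raw log2 change was −0.997 (SE 0.758, edgeR adjusted p = 0.37) at 2 h and −1.86 (SE 0.789, adjusted p = 0.117) at 4 h, the lowest of the 8 sites at 4 h. Its mean at 4 h was 27.5% of DMSO.

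The MYOD1 site 33.0 kb upstream, the strongest of the 8, held 80 and 150 reads in the controls (A and B), 91 and 30 after 2 h, and 49 and 57 after 4 h. The 2 h library A exceeded the DMSO library A here, so the 2 h and DMSO libraries overlapped, while both 4 h columns were lower than either control. Its mean was 52.6% of DMSO at 2 h and 46.1% at 4 h, beside 55.9% and 50.8% for the library totals. The raw log2 change at 2 h, −0.93, was −1.93 (edgeR adjusted p = 0.0456) without the 2 h library A, again with 37.3% of all tested sites passing, and −0.34 without the 2 h library B. The raw log2 change at 4 h was −1.12 (SE 0.719, edgeR adjusted p = 0.247).

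The MYOD1 site 23.6 kb upstream, the nearest to any of these genes, held 39 and 47 reads in the controls (A and B), 28 and 16 after 2 h, and 18 and 14 after 4 h. In raw counts treated and control libraries did not overlap at either time. The raw log2 change was −0.96 (SE 0.714, edgeR adjusted p = 0.365) at 2 h and −1.42 (SE 0.732, adjusted p = 0.181) at 4 h.

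At the MYOG site the DMSO libraries gave 24 and 34 reads, the 2 h libraries 26 and 17, and the 4 h columns 16 and 15. The 2 h libraries straddled the lower control and both 4 h columns lay below both controls. The mean was 74.1% of DMSO at 2 h and 53.4% at 4 h, with a raw log2 change at 4 h of −0.90 (SE 0.694, edgeR adjusted p = 0.301). Its counts are among the lowest of the 8 sites, which limits their precision.

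The MYF5 and MYF6 sites held the largest part of their DMSO reads at 4 h. At 154.2 kb from MYF6 the DMSO libraries gave 21 and 67 reads, the 2 h libraries 52 and 19, and the 4 h columns 33 and 29, so the treated counts lay between the controls or below them. At 58.5 kb the DMSO libraries gave 22 and 58 reads, the 2 h libraries 31 and 18, and the 4 h columns 28 and 25, and both 4 h columns again lay between the controls. At 197.2 kb the DMSO libraries gave 22 and 38 reads, the 2 h libraries 34 and 19, and the 4 h columns 17 and 21.

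Among these 3 sites the controls and the treated libraries separated only at 197.2 kb and only at 4 h. Their 4 h means were 70.5%, 66.2% and 63.3% of DMSO in the same order, with raw log2 changes of −0.50, −0.59 and −0.66 and SEs from 0.712 to 0.755 (edgeR adjusted p from 0.431 to 0.554). The sign of the raw change at 154.2 and 58.5 kb rested on the DMSO library B. Without it the raw log2 change at 4 h was 0.56 and 0.27.

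**Figure D2:**
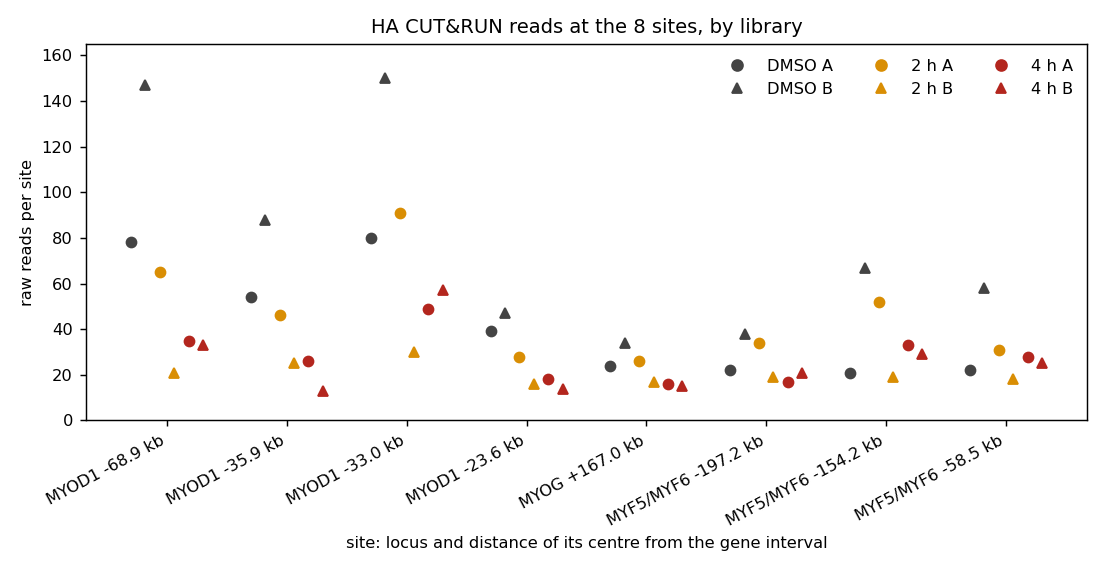
Raw reads (vertical axis) at each of the 8 sites (horizontal axis, by locus and distance) in the 6 columns, with circles for A, triangles for B, and colours for DMSO, 2 h and 4 h. At the MYOD1 sites the pair of 4 h columns lies below both DMSO libraries, and at the MYF5 and MYF6 sites 154.2 and 58.5 kb away they lie between them.

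No site of the 8 passed the test in raw counts at 2 h, where 1.04% of 5575 tested sites did, or at 4 h, where 6.19% did (quasi-likelihood test of edgeR, p adjusted by Benjamini-Hochberg, threshold 0.05). All 8 sites had passed the filter on low counts. At an unadjusted p under 0.05 there were 0 sites at 2 h (18.7% of all tested sites) and 2 at 4 h (28.1%), the MYOD1 sites at 68.9 and 35.9 kb. DESeq2 called 0 at 2 h and 0 at 4 h, against 0.779% and 7.07% of all sites to which it gave an adjusted p. With limma-voom the number was 0 at 2 h (3.23% of all tested sites) and 1 at 4 h (8.88%), the MYOD1 site at 35.9 kb. The share of all sites called in raw counts itself depended on the libraries and the fit, and ran from 0% to 37.3% at 2 h and from 0% to 24.9% at 4 h over 12 alternatives. In simulated data the raw test recovered 1% of 2-fold changes and 16% of 4-fold changes at 2 h, and 0% and 11% at 4 h. The simulation changed 100 sites 2-fold and 100 sites 4-fold among 5575, with equal library sizes and separate 4 h columns. In the data library sizes differed and the median tested site had a negative raw change. These percentages therefore do not give the recovery in the data.

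All 8 raw log2 changes were below 0 at both times with every library in the fit, with a median of −0.81 at 2 h and −1.01 at 4 h, beside −0.93 and −1.08 over all tested sites. The counts of both 4 h columns were under those of both controls at 6 of the 8 sites, against 80.3% of all tested sites, and those of the 2 h pair were at 3 of 8, against 50.2%.

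The second comparison asked whether a site differed more or less than the typical site, using TMM scaling, which removes a change common to most sites. At 2 h 0 of the 8 sites passed, against 6.57% of all tested sites. At 4 h, with the 4 h columns as separate libraries, 0 passed, against 11.4% (same edgeR test and threshold). At an unadjusted p under 0.05 there were 3 sites at each time (19.8% of all tested sites at 2 h and 25.4% at 4 h), the MYOD1 site at 68.9 kb and the MYF5 and MYF6 site at 154.2 kb at both, with the MYF5 and MYF6 site at 197.2 kb at 2 h and the MYOD1 site at 35.9 kb at 4 h. DESeq2 called 0 at 2 h and 0 at 4 h, against 0.608% and 0.915% of all sites with an adjusted p. With limma-voom the number was 0 at 2 h (7.3% of all tested sites) and 1 at 4 h (11.5%), again the MYOD1 site at 35.9 kb. In simulated data this test recovered 33% of 2-fold changes and 82% of 4-fold changes at 2 h, and 27% and 75% at 4 h. That simulation also changed 100 sites by each fold among 5575 and drew separate 4 h columns, so recovery in the data may differ.

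The 2 MYOD1 sites farthest from the gene came nearest to the threshold on the low side. Counts were also scaled to a total of 1000000 in the sites of each library (CPM). The site at 35.9 kb had 238.9 and 231.5 CPM in the controls, 201.5 and 226.4 CPM after 2 h, and 171.8 and 82.9 CPM after 4 h. All treated columns lay below both controls, those at 2 h by little. The relative log2 change was −0.05 (SE 0.235, edgeR adjusted p = 0.938) at 2 h and −0.76 (SE 0.269, adjusted p = 0.0625) at 4 h, and 10.4% of tested sites had a lower value at 4 h.

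The size of that change rested on 1 column: without the 4 h column B it was −0.32 (adjusted p = 0.671) and without column A −1.38 (adjusted p = 0.0225). With the 4 h columns as 1 library the adjusted p was 0.268, and with them summed, an alternative chosen after seeing the data, 0.0783. Of 17 alternatives run, 6 took the site past the threshold at 4 h. Among these, limma-voom called 11.5% of all tested sites, scaling on totals 13.4% and the compared groups alone 13.8%. The others each left out 1 library. From 2 h to 4 h the relative log2 change at this site was −0.71 (SE 0.298, adjusted p = 0.839).

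The site 68.9 kb upstream of MYOD1 had 345.0 and 386.8 CPM in the controls, 284.7 and 190.1 CPM after 2 h, and 231.2 and 210.4 CPM after 4 h. Here the treated libraries lay clear of the controls at both times. The relative log2 change was −0.45 (SE 0.209, edgeR adjusted p = 0.212) at 2 h and −0.61 (SE 0.218, adjusted p = 0.0636) at 4 h. At 4 h the adjusted p was 0.332 with the 4 h columns as 1 library, 0.0475 without the DMSO library A, 0.042 and 0.0472 without the 2 h library A or B, and 0.0256 with scaling on totals. Of 17 alternatives run, 5 took it past the threshold. Among these, scaling on totals called 13.4% of all tested sites and the compared groups alone 13.8%. The others each left out 1 library.

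The other MYOD1 sites stayed nearer to the typical site. At 33.0 kb there were 353.9 and 394.7 CPM in the controls, 398.6 and 271.6 CPM after 2 h, and 323.7 and 363.4 CPM after 4 h, with treated and control libraries overlapping at both times. The relative log2 change was 0.00 at both times (SE 0.210 at each, edgeR adjusted p = 0.998 at 2 h and 0.996 at 4 h), and its sign changed between scalings and tests. At 23.6 kb there were 172.5 and 123.7 CPM in the controls, 122.6 and 144.9 CPM after 2 h, and 118.9 and 89.3 CPM after 4 h. The 2 h libraries overlapped the controls and both 4 h columns lay below them. The relative log2 change at 23.6 kb was −0.03 (SE 0.273, edgeR adjusted p = 0.976) at 2 h and −0.33 (SE 0.297, adjusted p = 0.547) at 4 h.

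The MYOG, MYF5 and MYF6 sites had values above 0 on the relative scale, which turned below 0 when libraries were scaled on the 20 highest sites of the table. At the MYF5 and MYF6 site 197.2 kb away there were 97.3 and 100 CPM in the controls, 148.9 and 172.0 CPM after 2 h, and 112.3 and 133.9 CPM after 4 h. All treated columns lay above both controls. The relative log2 change was 0.77 (SE 0.27, edgeR adjusted p = 0.0784) at 2 h and 0.44 (SE 0.294, adjusted p = 0.371) at 4 h, and 95.1% of tested sites had a lower value at 2 h.

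At the MYF5 and MYF6 site 154.2 kb away the controls themselves were far apart, with 92.9 and 176.3 CPM, beside 227.8 and 172.0 CPM after 2 h and 218.0 and 184.9 CPM after 4 h. Its DMSO B to A ratio in raw reads was 3.19, against 1.68 in the totals. The relative log2 change was 0.64 (SE 0.258, edgeR adjusted p = 0.132) at 2 h and 0.62 (SE 0.266, adjusted p = 0.129) at 4 h. Without the DMSO library B it was 1.24 (adjusted p = 0.038) at 2 h and 1.22 (adjusted p = 0.0287) at 4 h, and without the DMSO library A 0.35 (adjusted p = 0.508) and 0.32 (adjusted p = 0.5), so the choice of control decided its size.

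At 58.5 kb from MYF6 there were 97.3 and 152.6 CPM in the controls, 135.8 and 163.0 CPM after 2 h, and 185.0 and 159.4 CPM after 4 h. The 2 h libraries overlapped the controls and the 4 h columns lay above them (0.52 for the relative log2 change after 4 h, SE 0.267, edgeR adjusted p = 0.22). The MYOG site had 106.2 and 89.5 CPM in the controls, 113.9 and 153.9 CPM after 2 h, and 105.7 and 95.6 CPM after 4 h. Its 2 h libraries lay above the controls and its 4 h columns between them (relative log2 change 0.51, SE 0.293, adjusted p = 0.333 at 2 h and 0.20, SE 0.32, adjusted p = 0.767 at 4 h).

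**Figure D3:**
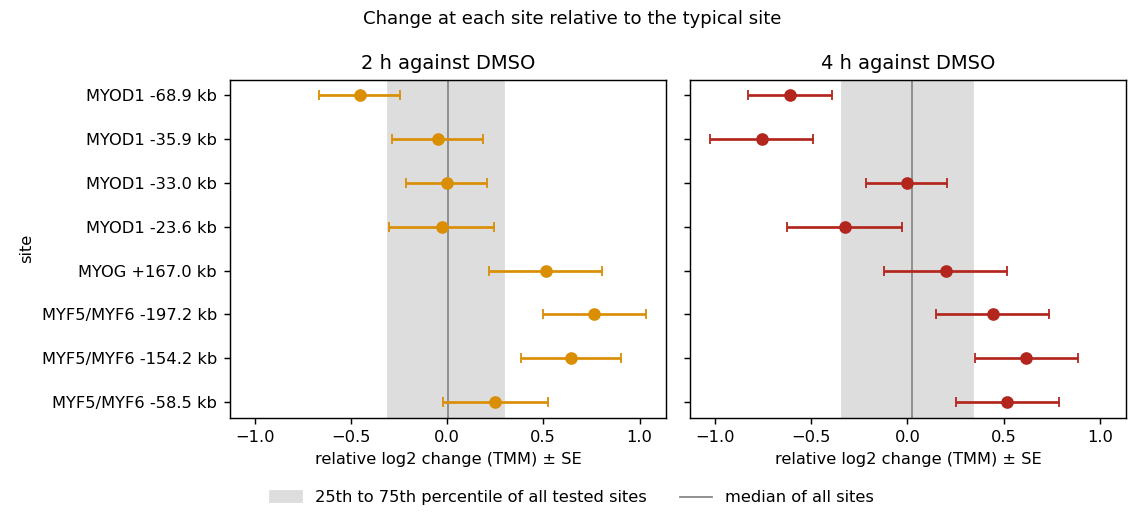
Relative log2 change ± SE (horizontal axis, TMM scaling) of each of the 8 sites (vertical axis) at 2 h and 4 h against DMSO, with the 25th to 75th percentile of all tested sites shaded and their median as a line. The MYOD1 sites lie at or below the median and the MYF5 and MYF6 sites above it at both times, and 0 of the 8 passed the test.

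The share of a library's total lay below both controls in both 2 h libraries at 2 of the 8 sites (32.8% of all tested sites) and above at 2 (15.3%). At 4 h it lay below at 3 sites (34.8%) and above at 3 (19%). The 3 sites below at 4 h were all MYOD1 sites and the 3 above all MYF5 and MYF6 sites. The median relative log2 change of the 8 sites was 0.12 at 2 h and 0.10 at 4 h, beside 0.01 and 0.02 over all tested sites. The comparisons at 2 h and 4 h share their DMSO libraries.

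Pooled over its 4 sites, the MYOD1 locus held 251 and 432 reads in the controls, 230 and 92 after 2 h, and 128 and 117 after 4 h. These were 0.111% and 0.114% of all reads in sites for the controls, 0.101% and 0.0833% after 2 h, and 0.0846% and 0.0746% after 4 h. Every treated share was below both DMSO shares, but the 95% Wilson interval of the 2 h library A, 0.0885% to 0.115%, included both of them. That of the 2 h library B was 0.0679% to 0.102% and that of the 4 h column A 0.0711% to 0.101%. Both overlapped the interval of the DMSO library A (0.0981% to 0.126%) and lay below that of B (0.103% to 0.125%). The interval of the 4 h column B, 0.0623% to 0.0894%, lay below those of both controls. Intervals here cover counting error only.

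The 3 MYF5 and MYF6 sites together held 65 and 163 reads in the controls, 117 and 56 after 2 h, and 78 and 75 after 4 h. Their share was 0.0288% and 0.0429% in the controls, 0.0513% and 0.0507% after 2 h, and 0.0515% and 0.0478% after 4 h, so each treated share was above both controls. The gap between the controls was wider than that between the DMSO library B and any treated library. The single MYOG site held between 0.00895% and 0.0154% of the reads, with 95% Wilson intervals that overlapped in all 6 columns.

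The MYOD1 reads were also set against the MYF5 and MYF6 reads of the same library, a ratio in which depth cancels and which was chosen after seeing the values. With DMSO it was 3.86 (95% exact interval 2.93 to 5.15) in library A and 2.65 (2.21 to 3.19) in library B. At 2 h it was 1.97 (1.57 to 2.48) and 1.64 (1.17 to 2.33), and in the 4 h columns 1.64 (1.23 to 2.20) and 1.56 (1.16 to 2.11). All treated ratios lay below both controls, although the interval of the DMSO library B overlaps those of both 2 h libraries and the controls differ from each other by more than the 2 h libraries do. The direction of this ratio follows from the shares given above, so it adds no support to them. Its intervals cover counting error only. Over all tested sites the DMSO and 2 h pairs differed by more than that (2.09 and 1.96 for chi-square over its degrees of freedom). No test was made of this ratio.

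**Figure D4:**
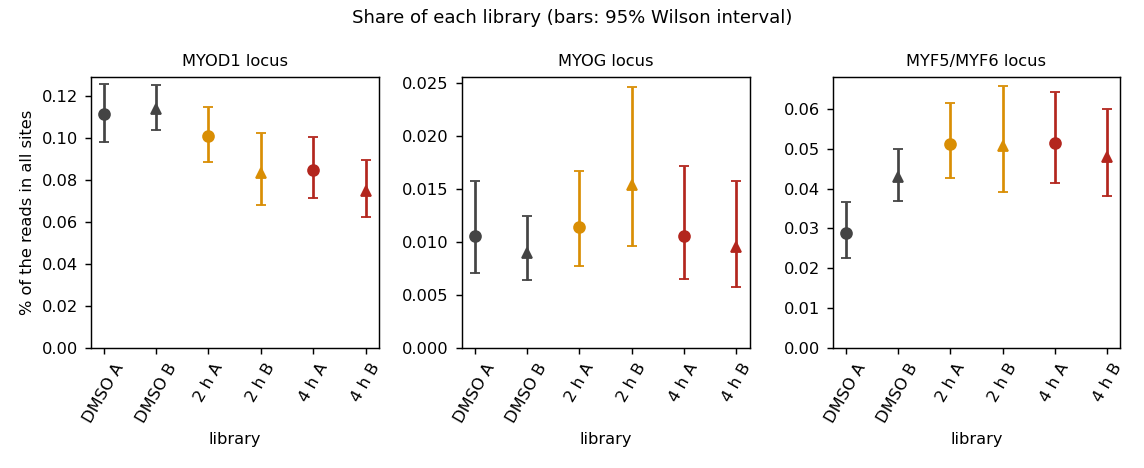
Percent of each library's reads in all sites (vertical axis, a separate scale in each panel starting at 0) held by the MYOD1, MYOG, and MYF5 and MYF6 sites in each library (horizontal axis), with 95% Wilson intervals. The treated MYOD1 shares lie below both controls, the treated MYF5 and MYF6 shares above both, and the MYOG intervals overlap in all 6 columns.

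Between 4 h and 2 h 0 of the 8 sites passed in either comparison, as did 0% of all tested sites (edgeR adjusted p under 0.05). At an unadjusted p under 0.05 there were 0 sites in raw counts (0.197% of all tested sites) and 1 on the relative scale (5.72%), the MYOD1 site at 35.9 kb. DESeq2 and limma-voom called 0 of the 8 sites and 0% of all sites. Profiles of the 8 sites over the 6 columns were not alike as a set: Pearson correlations of log2(CPM + 1) among the 28 pairs ran from −0.80 to 0.87 with a median of −0.15. These share libraries and depth and are given as a description.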

How the data were processed

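The authors deposited raw read counts per site in hg19, without normalization, in 6 columns (0 further value columns). DiffBind, deepTools, DESeq2, Bowtie2, Genrich 0.6.1 and Trimmomatic 0.32 are named in the submitters' processing notes. Not given in the sources used here are their roles and how sites were chosen. Each end lies 400 bases after its start, and coordinates are printed as in the file, where a base of 0 or 1 is not stated. The DMSO columns were read as crosslinked, since only that DMSO group has 2 samples. The library without crosslinking was not analysed here. Column letters are not tied to replicate numbers.

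Distances run from a site's centre to the nearest end of the gene interval. Strands came from RefSeq (GRCh38.p14), except that of MYOD1. The filter was filterByExpr (edgeR 4.0.16, R 4.3.3; count of at least 10, total of at least 15), which kept 5575 sites and removed 207. The edgeR quasi-likelihood test used a single fit to the 6 columns by treatment, with 3 residual degrees of freedom, once with equal library sizes and once with totals and TMM factors. The biological coefficient of variation was 38.7% and 11.6%. A standard error is the log2 change over the square root of F. Both tests were tested on simulated data with 5575 sites, 100 of them changed 2-fold and 100 changed 4-fold. The raw simulation gave all libraries the same size. Alternatives used DESeq2 1.42.0, limma 3.58.1, other scalings, filters, windows and left-out libraries. Shares used scipy 1.17.1. All member sites are named. The members, gene loci and tests were chosen with earlier results of these data known. Site sequences and a list of other myogenic genes were not used here, since both need an hg19 reference.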

Additional observations from a re-analysis of the deposited data

How the results depend on the processing

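Of the log2 changes at single sites against DMSO, with that from 2 h to 4 h at the MYOD1 site at 35.9 kb, 444 alternative values kept their direction and stayed on the same side of the threshold, 22 passed it, and 27 changed sign. From 2 h to 4 h at the other 7 sites, 16 of 203 alternative values changed sign or came to 0, and 0 passed the threshold. The count of member sites called, 0 in all 6 comparisons, was 2 at 4 h when the fit held the compared groups alone, for raw counts (24.5% of all tested sites) and relative counts (13.8%). It was 1 at 4 h with limma-voom, for raw (8.88%) and relative counts (11.5%), and 2 for relative counts at 4 h scaled on totals (13.4%). Leaving out 1 library, it ranged from 0 to 2 for raw counts at 2 h (0% to 37.3% of all tested sites) and at 4 h (0% to 24.9%). For relative counts it ranged from 0 to 1 at 2 h (1.71% to 7.82%) and from 0 to 2 at 4 h (4.56% to 14.3%). With 24.5% or more of all sites called in raw counts, 2 of 8 is near the background. For relative counts at 4 h, 2 of 8 stood beside 13.4% of all sites (scaled on totals) and 13.8% (compared groups alone). No test was made of that difference. The raw calls over all sites, 58 at 2 h and 345 at 4 h, were 0 and 1 with the replicate block, and 0 at both times with the 4 h columns as 1 library. They were 2072 at 2 h without the 2 h library A, and 1384 and 1408 at 4 h without the 2 h library A or B. Without the DMSO library B they were 0 at both times, and without the 4 h column A or B likewise. Where 1 library was left in a group, it was assumed to vary like the others. With a replicate block by column letter the count was 0 in all 6 comparisons, and the letters did not pair libraries (the correlation of the A to B difference was −0.187 for DMSO with 2 h, 0.0126 for DMSO with 4 h and −0.00566 for 2 h with 4 h).

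Scaled on the 20 highest sites, the relative log2 change was −0.35 at 2 h and −0.83 at 4 h at MYOG, and at the MYF5 and MYF6 sites −0.10 and −0.59 (197.2 kb), −0.26 and −0.44 (154.2 kb) and −0.63 and −0.52 (58.5 kb). Scaled on the lowest 10% of sites it was 0.0869, 0.11 and 0.10 at 2 h at the MYOD1 sites 35.9, 33.0 and 23.6 kb away, and 0.0815 at 4 h at 33.0 kb, where limma-voom gave 0.0063. The choice of scale produced the first set of sign changes, since it moved the median of all sites to −0.87 at 2 h and −1.01 at 4 h. Leaving out 1 library, the raw change at 2 h ranged from −0.66 to 0.27, −1.21 to 0.75 and −1.24 to 0.15 at the MYF5 and MYF6 sites at 197.2, 154.2 and 58.5 kb, and at 4 h from −1.11 to 0.56 and −1.13 to 0.27 at the last pair. The relative change at 2 h ranged from −0.15 to 0.14, −0.28 to 0.15 and −0.33 to 0.21 at the MYOD1 sites at 35.9, 33.0 and 23.6 kb, and at 4 h from −0.0833 to 0.0701 at 33.0 kb. For the other changes the cause was not tested.

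A window of 100 kb held 0 MYOG sites, 1 MYF5 and MYF6 site and 4 MYOD1 sites, and a window of 500 kb the same numbers as 250 kb. Without the 20 highest sites in the denominator the mean share was 0.12% for MYOD1 with DMSO and 0.0571% for MYF5 and MYF6 at 2 h, beyond the SD between replicates. With 13 to 150 reads per site and column, counting error limits each single value.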
